A study of Mus musculus with 8 samples.

Results

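Axon guidance ligands and their receptors were followed in mouse sympathetic ganglia that lack, or have reduced levels of, the LIM-homeodomain transcription factor ISL1. Members were all genes whose symbol belongs to the semaphorins, plexins, neuropilins, ephrins, Eph receptors, Slits, Robos, netrins, the netrin receptors of the DCC, neogenin, and UNC5 families, the RGMs, the Celsr cadherins, or *Islr2*. No measured value was used to choose them. The symbols matched 68 of 13506 genes listed at E11.5 and 72 of 13413 genes listed at E14.5, 72 genes in all. *Epha8*, *Epha10*, *Slit1*, and *Unc5d* were listed at E14.5 only. Of the 76 protein-coding genes of the annotation with such a symbol, *Epha6*, *Ntn5*, *Robo3*, *Sema3e*, and *Unc5cl* were in neither table. The symbol rule also takes in *Unc50*, which is not a netrin receptor, and leaving it out changed no count of genes that were higher or lower. Of the 72 members, 35 encode ligands and 32 receptors, and the other 5 are the Celsr cadherins, *Islr2*, and *Unc50*.

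At E11.5, ganglia of *Wnt1-Cre;Isl1 f/f* embryos, named *Isl1* CKO, were compared with ganglia of *Wnt1-Cre;Isl1 +/+* embryos, named controls. Both genotypes carried Wnt1-Cre, which is active in neural crest lineages, and the *Rosa26-tdTomato* reporter, which guided the dissection. At E14.5, ganglia of embryos homozygous for the hypomorphic *Isl1 f-neo* allele were compared with *Isl1 +/+* wildtype ganglia, with no reporter in the dissection. There were 2 libraries per genotype and stage, 8 in all, each from the pooled ganglia of many embryos. The tables give 1 combined FPKM (fragments scaled to transcript length and library size) per gene and genotype. No spread between libraries, no standard error, and no test could therefore be given, and the depth behind the values is unknown. Differences are given as log2 ratios of FPKM + 0.1, and a gene is counted as higher or lower where the ratio passes 1.5-fold.

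Axon guidance proteins steer growing axons and migrating neural crest cells. Secreted class 3 semaphorins bind neuropilins, which signal through A plexins, and they are known to pattern the migration of sympathetic precursors and the growth of their axons. Ephrins and Eph receptors act between touching cells, Slits repel axons through Robo receptors, and netrins attract or repel them through DCC or UNC5 receptors. RGMs bind neogenin and BMP ligands. The Celsr cadherins act in planar polarity and axon tract formation, and *Islr2* encodes a leucine-rich repeat membrane protein of growing axons.

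In control ganglia the receptors of class 3 semaphorins were the most abundant members. At E11.5 *Nrp1* stood at 96.5 FPKM and *Nrp2* at 93.7 FPKM, followed by *Plxnb2*, a receptor of class 4 semaphorins, at 53.3 FPKM. *Islr2* at 43.9, *Slit3* at 42.7, and *Plxna4* at 42.3 FPKM came next. The median over the 68 members was 7.48 FPKM in controls, against 11.3 FPKM over all genes, and the lowest member was *Ephb1*, at 0.67 FPKM. In E14.5 wildtype ganglia *Nrp1* was again the highest, at 117 FPKM, with *Plxna4* at 97.6 FPKM and *Nrp2* at 88.5 FPKM. The median over the 72 members at E14.5 was 8.38 FPKM and the lowest value was 1.202 FPKM, of *Epha1*. *Isl1* itself was 133 FPKM in controls and 40.01 FPKM in CKO ganglia, 30.2% of control, and 162 FPKM in wildtype and 83.1 FPKM in hypomorphic ganglia, 51.3% of wildtype. The sympathetic markers *Th* and *Dbh*, enzymes of noradrenaline synthesis, were at 145 FPKM or more in every genotype.

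The promoters of the 4 members on which the mutant comparisons turn most follow, with *Islr2* and *Celsr3* lower in CKO ganglia, and *Rgmb* lower and *Plxna2* higher in hypomorphic ganglia. They are the 250 bases before a transcript start in RefSeq, from build GRCm38.p6, written 5′ to 3′ on the strand of the gene. Capitals mark the letters CTAATG or CTAATT on either strand, core letters of homeodomain sites, and the marked letters do not overlap. *Islr2* and *Rgmb* each have 3 listed starts, of which the most downstream is shown for *Islr2* and the most upstream for *Rgmb*.
*Islr2*, chr9:58202345-58202594, minus strand: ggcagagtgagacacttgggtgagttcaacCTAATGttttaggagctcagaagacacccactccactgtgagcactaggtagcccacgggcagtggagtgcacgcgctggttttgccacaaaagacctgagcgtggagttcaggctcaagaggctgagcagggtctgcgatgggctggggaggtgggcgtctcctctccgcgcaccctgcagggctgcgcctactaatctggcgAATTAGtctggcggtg
*Celsr3*, chr9:108825795-108826044, plus strand: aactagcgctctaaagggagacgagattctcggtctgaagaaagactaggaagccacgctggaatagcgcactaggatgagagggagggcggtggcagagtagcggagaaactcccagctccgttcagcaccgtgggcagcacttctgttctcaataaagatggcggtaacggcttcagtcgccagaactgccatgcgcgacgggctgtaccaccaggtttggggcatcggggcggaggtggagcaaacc
*Rgmb*, chr17:15831247-15831496, minus strand: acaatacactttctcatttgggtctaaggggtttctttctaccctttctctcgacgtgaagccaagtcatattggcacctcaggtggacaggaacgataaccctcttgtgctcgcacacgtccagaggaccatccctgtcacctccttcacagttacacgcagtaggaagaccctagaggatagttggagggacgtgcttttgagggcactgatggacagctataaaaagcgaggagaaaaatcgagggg
*Plxna2*, chr1:194619579-194619828, plus strand: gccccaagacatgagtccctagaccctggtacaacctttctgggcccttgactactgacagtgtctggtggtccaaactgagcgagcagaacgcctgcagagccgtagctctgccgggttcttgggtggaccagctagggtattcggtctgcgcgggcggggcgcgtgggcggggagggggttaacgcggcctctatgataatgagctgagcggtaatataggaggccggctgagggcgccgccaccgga

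The *Islr2* stretch held 1 match of CTAATG and 1 of CTAATT, the latter on the opposite strand, and neither was found in the other 3 stretches. It was shown because it held the most matches, the middle *Islr2* start having 1 and the most upstream 0, and the other *Rgmb* starts held none. Over windows of 300 bases around RefSeq starts, available for 60 of the 72 members, 9 of 80 windows held either motif, against 14.7% of 32851 windows of all genes. *Epha5*, *Epha7*, *Ephb3*, *Sema4a*, *Sema4d*, and *Unc5c* held the others. These counts describe letters in short windows and were not read as binding.

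Ganglia at E11.5 addressed what loss of *Isl1* in the neural crest lineage does to gene expression as sympathetic neurons form. Of 68 members, 12 (17.6%) were lower and 19 (27.9%) were higher in CKO ganglia, with 37 within 1.5-fold. Over all genes, 12.9% were lower and 18.9% were higher. In the tables as deposited, the member shares lay above both, with a median log2 ratio of 0.19 against 0.05 over all genes. Among the 54 members at 5 FPKM or more in either genotype, 12 (22.2%) were lower and 15 (27.8%) higher, against 12.9% and 15.1% of all genes at that level. *Nrp2*, *Islr2*, *Slit3*, *Plxna4*, and *Celsr3*, which were among the 8 most abundant members in control ganglia, were lower, whereas all higher members except *Efnb1*, *Ephb4*, and *Plxnd1* were below 10 FPKM there.

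The 3 members furthest below control were *Islr2*, *Celsr3*, and *Plxna4*. *Islr2* (chr9:58044105-58052126, mm9) was 43.9 FPKM in control and 15.5 FPKM in CKO ganglia, a log2 ratio of -1.50. *Celsr3* (chr9:108728651-108755294), the neuronal Celsr cadherin, was 25.7 and 11.2 FPKM, a log2 ratio of -1.196. *Plxna4* (chr6:32094565-32538192), which transduces class 3 and class 6 semaphorin signals, was 42.3 and 19.7 FPKM, a log2 ratio of -1.10. These were also the only members past 2-fold on the lower side. *Celsr2* was 9.52 and 7.11 FPKM, within 1.5-fold, so that *Celsr3* went from 2.70 to 1.57 times the level of *Celsr2*.

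Among semaphorin receptors, *Nrp2* (chr1:62749859-62865269), the neuropilin that binds SEMA3F and SEMA3C, was 93.7 FPKM in control and 49.1 FPKM in CKO ganglia, a log2 ratio of -0.93. *Nrp1*, the receptor of SEMA3A, was 96.5 and 79.1 FPKM, within 1.5-fold. The *Nrp1* to *Nrp2* ratio, which no scaling of the libraries can move, was thereby 1.03 in control and 1.61 in CKO ganglia. All 4 A plexins were below control, but *Plxna4* alone passed 1.5-fold. *Plxna4* made up 54.1% of the summed FPKM of A plexins in control and 38.01% in CKO ganglia. *Plxnb1*, a SEMA4D receptor, was 16.5 and 10.5 FPKM. On the other side stood *Plxnd1*, the endothelial receptor of SEMA3E, at 20.6 and 31.8 FPKM, and *Plxnb3*, at 1.12 and 2.54 FPKM. *Plxnb2* (53.3 and 60.2 FPKM), *Plxnc1* (6.48 and 5.33 FPKM), and the other A plexins were within 1.5-fold.

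Among the ligands, all 6 class 3 semaphorins were above control in the tables as deposited and 4 passed 1.5-fold. Over all genes, 7279 of 13506 were above control and 18.9% passed 1.5-fold on that side. *Sema3b* was 2.14 FPKM in control and 5.62 FPKM in CKO ganglia, and *Sema3d* was 4.16 and 10.7 FPKM, log2 ratios of 1.35 and 1.34. *Sema3c* was 8.76 and 17.3 FPKM, and *Sema3a*, a repellent for sympathetic axons, was 5.67 and 10.0 FPKM. *Sema3f* and *Sema3g* had log2 ratios of 0.06 and 0.20 only. After rescaling to equal sums without red blood cell genes, given below, these 2 were below 0 (-0.17 and -0.03). *Sema3a* then came within 1.5-fold (0.577). Summed over the class, the ligands were 29.0 FPKM in control and 52.7 FPKM in CKO ganglia, whereas the 2 neuropilins summed to 190 and 128 FPKM. The ligand sum was 0.153 times the neuropilin sum in control and 0.412 times in CKO ganglia. Class 4 and class 6 semaphorins, which are membrane bound, were mixed. *Sema4b* (6.87 and 4.10 FPKM), *Sema4d* (7.61 and 4.73 FPKM), and *Sema6d* (15.1 and 9.63 FPKM) were lower, and *Sema6b* (1.93 and 3.48 FPKM) was higher. The other 11 semaphorins, counting *Sema3f* and *Sema3g*, had log2 ratios from -0.52 (*Sema7a*) to 0.50 (*Sema5a*).

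**Figure D1:**
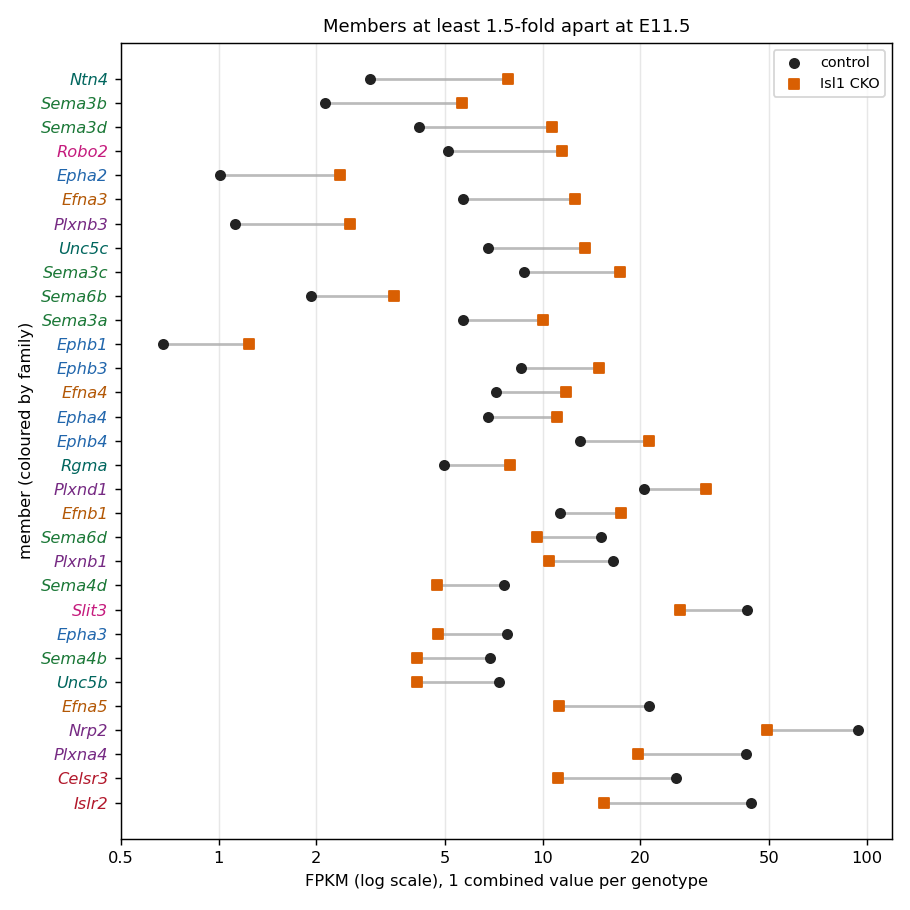
FPKM (log axis, 1 combined value per genotype) of the 31 members at least 1.5-fold apart at E11.5, in control (circles) and *Isl1* CKO ganglia (squares), ordered by log2 ratio from *Ntn4* at 1.38 to *Islr2* at -1.50, with symbols coloured by family. After rescaling without red blood cell genes, the 12 lower members and 10 of the 19 higher members stayed past 1.5-fold.

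Eph receptors and ephrins counted more higher than lower genes in the tables as deposited, as did all genes (18.9% against 12.9%). After rescaling without red blood cell genes, each family had 1 higher and 1 lower gene. Of 11 Eph receptors, the repulsive or adhesive tyrosine kinases of cell contacts, 5 were higher, 1 was lower, and 5 were within 1.5-fold. *Ephb3* was 8.60 FPKM in control and 14.9 FPKM in CKO ganglia, *Ephb4* was 13.1 and 21.2 FPKM, and *Epha4* was 6.78 and 11.03 FPKM. *Epha2* (1.01 and 2.37 FPKM) and *Ephb1* (0.67 and 1.24 FPKM) were higher at low levels. *Epha3* (7.77 and 4.75 FPKM, a log2 ratio of -0.70) was the only lower receptor, and *Ephb2*, the most abundant, was 23.7 and 23.1 FPKM. The remaining *Epha1*, *Epha5*, *Epha7*, and *Ephb6* had log2 ratios from 0.18 to 0.57. Among their 8 ligands, *Efna5* alone was lower, with control ganglia at 21.3 FPKM and CKO ganglia at 11.2 FPKM, a log2 ratio of -0.91. *Efna3* was 5.68 and 12.6 FPKM, a log2 ratio of 1.13, and *Efna4* (7.16 and 11.8 FPKM) and *Efnb1* (11.3 and 17.4 FPKM) were higher as well. The order within ephrins A differed, since *Efna5* was 3.75 times the level of *Efna3* in control and 0.894 times in CKO ganglia. The summed FPKM of the 5 ephrins A was nearly level, at 50.7 and 54.4. *Efna1*, *Efna2*, *Efnb2*, and *Efnb3* were within 1.5-fold.

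A Slit was lower and a Robo receptor was higher. *Slit3* was 42.7 FPKM in control and 26.5 FPKM in CKO ganglia, a log2 ratio of -0.69, and *Slit2* was 19.0 and 14.3 FPKM, within 1.5-fold. *Robo2* was 5.09 and 11.4 FPKM, a log2 ratio of 1.15, and *Robo1* was 7.63 and 7.88 FPKM. *Robo2* was thus below *Robo1* in control ganglia, at 0.667 times its level, and above it in CKO ganglia, at 1.45 times.

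In the netrin group, *Ntn4*, a basement membrane netrin, had the highest log2 ratio of all members, 1.38, with 2.94 FPKM in control and 7.83 FPKM in CKO ganglia. *Ntn1* (3.13 and 4.47 FPKM) and *Ntn3* (7.81 and 10.3 FPKM) were above control but within 1.5-fold. The UNC5 receptors, which convert netrin attraction to repulsion, split. *Unc5c* was 6.76 and 13.5 FPKM, *Unc5b* was 7.35 and 4.10 FPKM, and *Unc5a* was 8.41 and 5.88 FPKM, the last just within 1.5-fold. *Unc5a* was 1.24 times the level of *Unc5c* in control and 0.435 times in CKO ganglia. *Rgma* was higher (4.95 and 7.90 FPKM), whereas *Rgmb* (21.5 and 24.1 FPKM), the shared receptor *Neo1* (34.8 and 38.1 FPKM), and *Dcc* (1.93 and 1.53 FPKM) were within 1.5-fold. These ratios between 2 members were picked after their values had been seen. Values nearest the limit of 1.5-fold were those of *Efnb1*, *Plxnd1*, and *Sema6d* inside the count and *Epha1*, *Sema7a*, and *Unc5a* outside it.

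Marker genes of cell types were counted in the same comparison, in which 18.9% of all genes were higher and 12.9% lower. All 12 neural crest and glial markers were higher in CKO ganglia, summing to 374 FPKM in control and 818 FPKM in CKO ganglia. So were 8 of 12 mesenchyme markers (930 and 1421 FPKM). Of 10 endothelial markers 2 (20%) were higher (81.1 and 106 FPKM), near the share of all genes. The 9 listed trophoblast, decidua, and yolk sac markers were higher (143 and 621 FPKM). *Sparc* alone stood at 129 and 369 FPKM, so that 1 gene made up most of this last sum. The median of the 9 was 1.82 FPKM in control and 48.4 FPKM in CKO ganglia, so the difference was not that of *Sparc* alone. Of 14 sympathetic neuron markers 5 were lower and none was higher (3341 and 2980 FPKM), and none of these 5 lists held a gene at 0 in either genotype. Their part in the higher and lower members was not tested. In bulk ganglia, fewer cells of a type and less RNA per cell cannot be told apart. Red blood cell genes held 2.29% of the summed FPKM of controls and 11.2% of that of CKO ganglia. *Hbb-y*, a globin, was 7552 FPKM in controls and listed at 0 in CKO ganglia, whereas the other 9 listed red blood cell genes were higher. The 11.2% therefore holds nothing for *Hbb-y* and may be too low. Rescaling both genotypes to equal sums without these genes shifted the median of all genes from 0.05 to -0.19 and gave 16 lower and 10 higher members, with a member median of -0.05. All genes then numbered 3044 lower and 1611 higher, so that 34.6% of calls were higher, against 59.4% without rescaling. Under it *Sema3a*, *Ephb1*, *Ephb3*, *Ephb4*, *Epha4*, *Efna4*, *Efnb1*, *Plxnd1*, and *Rgma* came within 1.5-fold, *Sema3f* and *Sema3g* came below 0, and *Slit2*, *Unc5a*, *Celsr2*, and *Sema7a* became lower. No member past 1.5-fold changed direction. This rescaling also evens the summed FPKM of all other genes, and the part of red blood cell genes in the shift was not tested. Centring on the median of all genes instead gave 12 lower and 17 higher members. Scaling to equal upper quartiles gave 12 lower and 19 higher members.

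**Figure D2:**
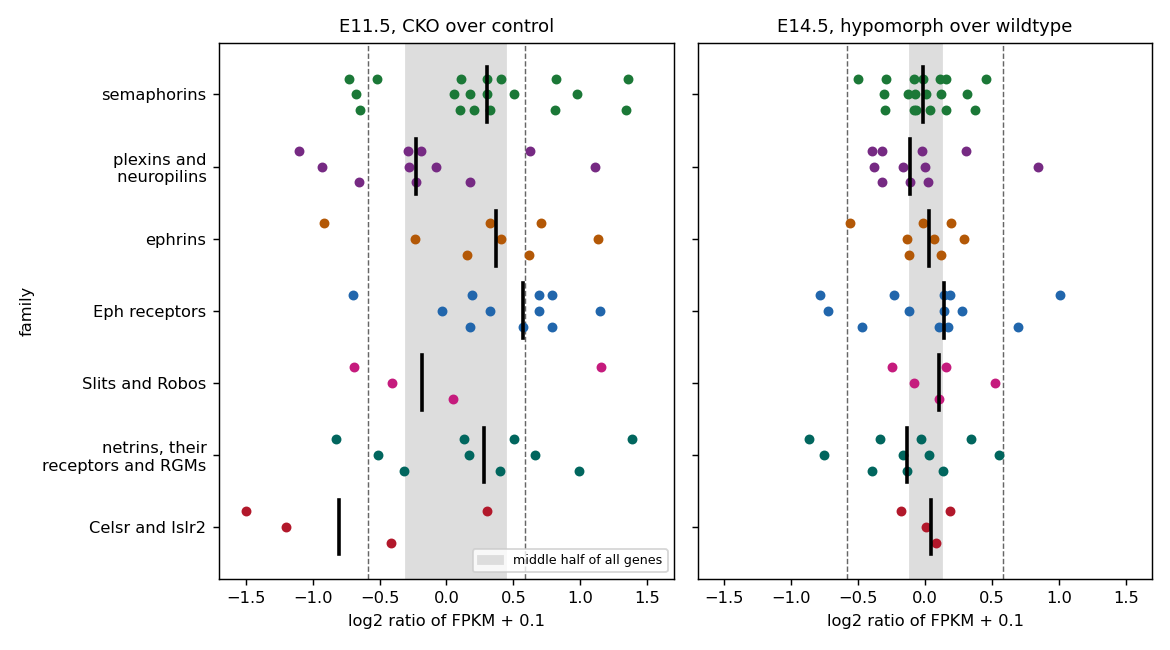
Log2 ratios of FPKM + 0.1 by family at E11.5 (67 genes) and E14.5 (71 genes), without *Unc50*. Each point is a gene, black bars are family medians, the grey band holds the middle 50% of all genes, and dashed lines mark 1.5-fold. At E11.5 the medians ran from -0.81 (Celsr and *Islr2*) to 0.57 (Eph receptors), and at E14.5 from -0.14 to 0.14. Without red blood cell genes, the E11.5 medians kept their sign.

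Signalling proteins that act downstream of these receptors were counted in the same way, in a list that also held surface and polarity proteins. Among the latter were *L1cam*, *Nrcam*, *Cntn2*, *Fzd3*, *Vangl2*, and *Flrt1* to *Flrt3*. Of 59 effectors, such as collapsin response mediators, small GTPases, and their exchange factors, 56 were listed at E11.5, of which 8 (14.3%) were lower and 5 (8.93%) higher, against 12.9% and 18.9% of all genes, with a median log2 ratio of -0.18 against 0.05. After the rescaling, 21 of 56 were lower, 4 were higher, and the median was -0.41, with 22.7% of all genes lower and a median of -0.19. The 2 most abundant, *Cfl1* (621 and 635 FPKM) and *Cdc42* (322 and 387 FPKM), were within 1.5-fold. At E14.5, 2 of 57 effectors (3.51%) were lower and none was higher, against 2.12% and 2.89% of all genes, with a median of -0.08. *Flrt1* was among these 2, and *Flrt2* and *Flrt3* were among the 5 higher at E11.5.

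At E14.5 the question was what reduced *Isl1* does in differentiating neurons. Of 72 members, 4 (5.56%) were lower and 3 (4.17%) were higher in hypomorphic ganglia, with 65 within 1.5-fold. Over all genes, 2.12% were lower and 2.89% were higher, and the median log2 ratio was -0.01 over the members and 0.00 over all genes. The member shares rest on 4 and 3 genes, of which *Unc5d*, *Epha8*, *Epha10*, and *Ephb1* were below 5 FPKM in both genotypes. Among the 53 members at 5 FPKM or more in either genotype, *Rgmb* alone was lower (1.89%), and *Plxna2* and *Epha3* were higher (3.77%), against 1.67% and 2.17% of all genes at that level.

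*Rgmb* (chr17:15941626-15963550, mm9), a BMP co-receptor that also binds neogenin, was the most abundant member past the limit. It was 79.5 FPKM in wildtype and 47.1 FPKM in hypomorphic ganglia, a log2 ratio of -0.76. *Rgma* was 6.28 and 6.89 FPKM, so that *Rgmb* was 12.7 times the level of *Rgma* in wildtype and 6.83 times in hypomorphic ganglia. The other lower members were weakly expressed, with *Unc5d* at 1.44 and 0.74 FPKM, *Epha8* at 1.45 and 0.80 FPKM, and *Epha10*, a kinase-dead Eph receptor, at 4.34 and 2.58 FPKM.

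Plexin A2 was the semaphorin receptor furthest above wildtype. *Plxna2* (chr1:196446023-196643063), which binds class 6 semaphorins, was 6.70 FPKM in wildtype and 12.1 FPKM in hypomorphic ganglia, a log2 ratio of 0.84. The other 3 A plexins were below wildtype but within 1.5-fold, among them *Plxna4* at 97.6 and 90.4 FPKM and *Plxna3* at 57.2 and 43.5 FPKM. *Plxna2* therefore made up 3.69% of the summed A plexin FPKM in wildtype and 7.48% in hypomorphic ganglia. *Epha3* was 4.40 and 7.20 FPKM (log2 ratio 0.70), and *Ephb1* was 1.59 and 3.31 FPKM (log2 ratio 1.01). Just outside the limit were *Efna3* at 12.1 and 8.14 FPKM, *Unc5a* at 8.41 and 12.4 FPKM, and *Robo1* at 3.09 and 4.49 FPKM.

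A limit of 1.2-fold took in 16 lower and 12 higher members at E14.5, 22.2% and 16.7% of 72, against 9.01% lower and 12.2% higher over all genes. Receptors accounted for 9 of the lower and 8 of the higher genes (of 32), and ligands for 7 and 4 (of 35). Pairs of related genes lay on both sides. *Nrp1* was 117 FPKM in wildtype and 93.9 FPKM in hypomorphic ganglia, and *Nrp2* was 88.5 and 109 FPKM, so that *Nrp1* went from 1.33 to 0.860 times the level of *Nrp2*. *Efna3* was lower and *Efna5* higher (21.1 and 25.8 FPKM), and *Efna5* went from 1.74 to 3.17 times the level of *Efna3*. *Unc5c* was lower (2.52 and 1.97 FPKM) and *Unc5a* higher, and the *Unc5a* to *Unc5c* ratio went from 3.34 to 6.29. *Epha5* (13.3 and 9.56 FPKM) was lower where *Epha3* was higher, and the *Epha5* to *Epha3* ratio went from 3.01 to 1.33. In all 4 of these pairs, picked after their values had been seen, the ratio at E11.5 had gone the opposite way between control and CKO ganglia. Of the other related pairs, some also went opposite ways. The *Robo2* to *Robo1* ratio was 0.667 and 1.45 at E11.5 and 0.920 and 0.707 at E14.5. For *Slit3* over *Slit2* it was 2.25 and 1.85 at E11.5 and 2.55 and 2.87 at E14.5. The pairs that follow went the same way at both stages. The *Rgmb* to *Rgma* ratio was 4.34 in controls and 3.05 in CKO ganglia. For *Plxna4* over *Plxna2* it was 6.74 and 3.67 at E11.5 and 14.6 and 7.47 at E14.5. The *Celsr3* to *Celsr2* ratio was 3.23 and 2.85 at E14.5, also lower in the mutant. The class 3 semaphorins summed to 33.7 and 35.7 FPKM, and none of the 19 semaphorins reached 1.5-fold, the nearest being *Sema4g* at 23.0 and 16.3 FPKM.

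**Figure D3:**
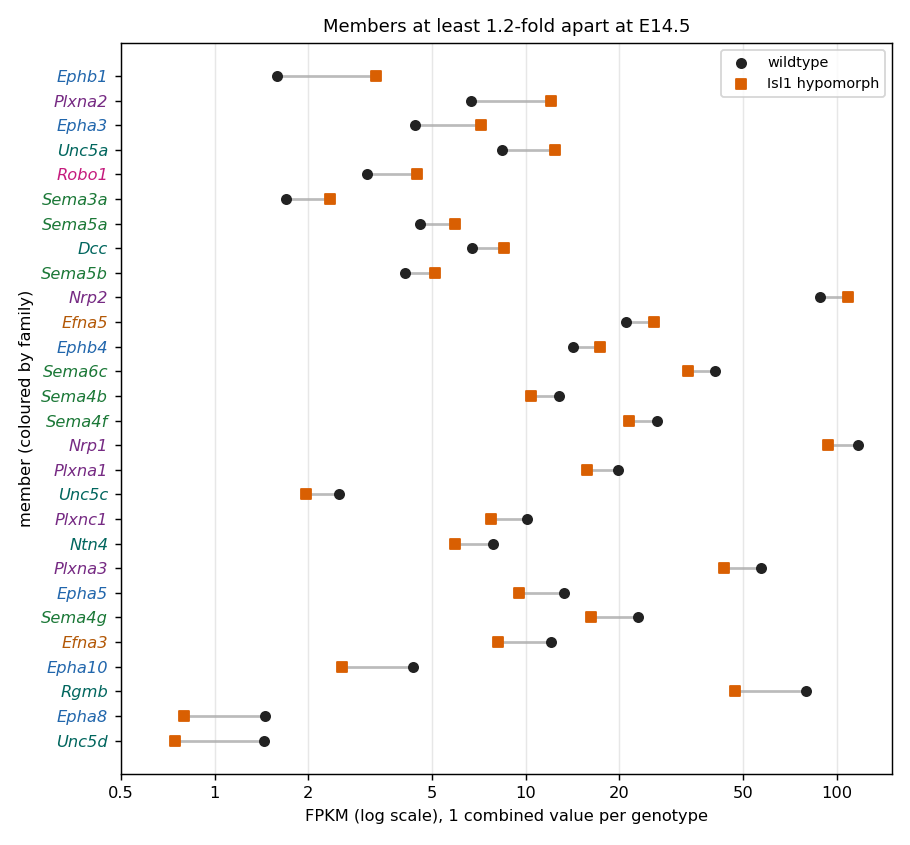
FPKM (log axis, 1 combined value per genotype) of the 28 members at least 1.2-fold apart at E14.5, in wildtype (circles) and *Isl1* hypomorphic ganglia (squares), ordered by log2 ratio from *Ephb1* at 1.01 to *Unc5d* at -0.87. Of these, 7 passed 1.5-fold, in this and every other scaling tried.

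Marker lists were also counted at E14.5, where 2.12% of all genes were lower and 2.89% higher. None of 12 neural crest and glial and none of 12 mesenchyme markers passed 1.5-fold (medians 0.12 and 0.23), 1 of 10 endothelial markers was higher (median 0.46), and 2 of 14 sympathetic neuron markers were lower (median -0.18). Of 12 red blood cell genes 3 were higher and 1 was lower (median 0.44). The lower gene was *Hba-a1* (3.04 and 0.057 FPKM), and *Hba-a2* (0.081 and 3.60 FPKM) was among the higher, both under 5 FPKM. Of 7 listed trophoblast, decidua, and yolk sac markers 2 were higher (median 0.22). The part of these markers in the member values was not tested.

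The mutant comparisons share no control values and can be set side by side for the 68 members listed at both stages, although the alleles and dissections also differ. *Ephb1* was the only member higher in both, and no member was lower in both. The levels of *Ephb1* were low, at 0.67 and 1.24 FPKM at E11.5 and 1.59 and 3.31 FPKM at E14.5. After rescaling without red blood cell genes, *Ephb1* came within 1.5-fold at E11.5 (log2 ratio 0.576). *Epha3* was lower in CKO ganglia and higher in hypomorphic ganglia. A further 29 members passed 1.5-fold at E11.5 only, and *Rgmb* and *Plxna2* at E14.5 only. The 3 members lowest in CKO ganglia were within 1.2-fold of wildtype in hypomorphic ganglia, with *Islr2* at 80.9 and 92.3 FPKM, *Celsr3* at 50.03 and 44.2 FPKM, and *Plxna4* at 97.6 and 90.4 FPKM, whereas *Nrp2* and *Efna5*, next in order, were past 1.2-fold above wildtype. Signs were alike for 38 of 68 members. Of all 12727 genes listed at both stages, 68 were lower in both and 100 were higher in both. As with *Epha3*, 110 were lower at E11.5 and higher at E14.5, and 52 went the other way. A further 3435 passed 1.5-fold at E11.5 only, 147 passed it at E14.5 only, and 6510 of the 12727 had the same sign. Across the 68 members, which are not independent replicates, Pearson's r was -0.03 and Spearman's rank correlation was 0.05. Over all 12727 genes they were 0.03 and 0.06. The median absolute log2 ratio of the members was 0.51 at E11.5 and 0.16 at E14.5, against 0.36 and 0.11 over all genes.

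**Figure D4:**
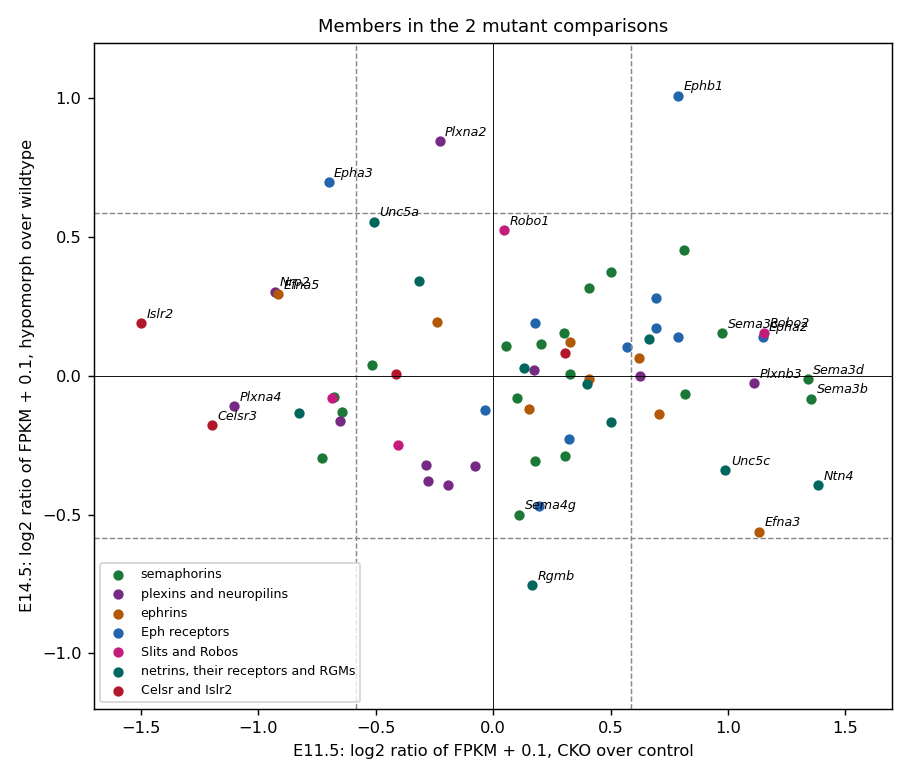
Log2 ratios of FPKM + 0.1 for 67 members (without *Unc50*), with E11.5 CKO over control on the horizontal axis and E14.5 hypomorph over wildtype on the vertical axis, coloured by family, with dashed lines at 1.5-fold. *Ephb1* lies beyond both limits in the upper right and *Epha3* in the upper left, and *Islr2*, *Celsr3*, and *Plxna4* lie far left at heights between -0.18 and 0.19. After rescaling without red blood cell genes, *Ephb1* came within 1.5-fold at E11.5.

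Control ganglia were also set side by side across stages, for which the 2 tables were normalised separately and the mice and dissections differed. Stage and these differences cannot be told apart, and the ratios share their control values with the mutant comparisons. Of 68 members, 36 (52.9%) were higher and 7 (10.3%) were lower in E14.5 wildtype than in E11.5 control ganglia, against 29.7% higher and 12.8% lower over all genes. The member median was 0.63 and that of all genes 0.24. After centring on the median of all genes, 30 members were higher and 8 lower, and all genes then stood at 49.6% of calls higher, against 69.9% before.

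Class 4 and class 6 semaphorins were prominent among the higher members. *Sema4g* was 4.90 FPKM at E11.5 and 23.0 FPKM at E14.5, and *Sema4f* was 6.06 and 26.5 FPKM, log2 ratios of 2.21 and 2.11. *Sema6c* was 11.2 and 40.8 FPKM and *Sema6d* was 15.1 and 43.8 FPKM. The class 4 sum was 42.6 and 102 FPKM, while the class 3 sum was 29.0 and 33.7 FPKM. Within class 3 the members diverged, with *Sema3b* at 2.14 and 9.24 FPKM and *Sema3a* at 5.67 and 1.69 FPKM. *Rgmb* was 21.5 and 79.5 FPKM, a log2 ratio of 1.88, *Plxna3* was 19.1 and 57.2 FPKM, and *Dcc* was 1.93 and 6.72 FPKM. The lower members were *Sema3a* and 6 receptors, namely *Epha3*, *Epha4* (6.78 and 1.87 FPKM), *Epha7* (12.5 and 7.84 FPKM), *Robo1* (7.63 and 3.09 FPKM), *Robo2* (5.09 and 2.84 FPKM), and *Unc5c* (6.76 and 2.52 FPKM). The neuropilins were nearly level, summing to 190 and 206 FPKM.

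**Figure D5:**
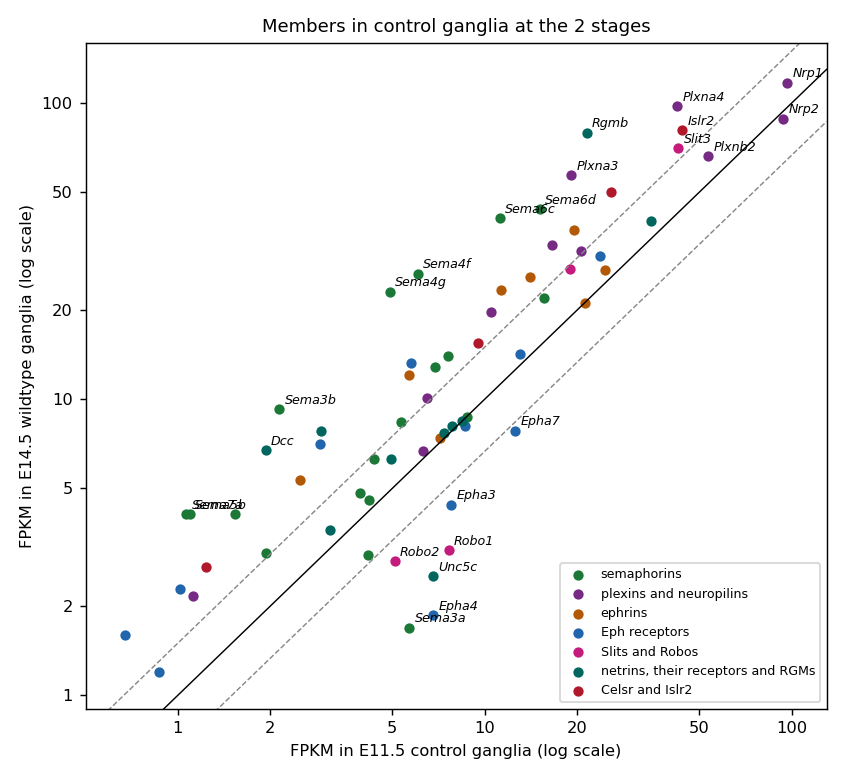
FPKM of 67 members (without *Unc50*) in E11.5 control (horizontal) and E14.5 wildtype ganglia (vertical), on log axes, coloured by family, with the line of equality and dashed lines at 1.5-fold. The 36 higher members include *Rgmb*, *Sema4f*, and *Sema4g* far above the line, and the 7 lower members, among them *Sema3a* and *Epha4*, lie below it. After centring, 30 were higher and 8 lower.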

How the data were processed

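Sympathetic ganglia were profiled by polyA RNA-seq, with 2 libraries per genotype and stage. Per the paper's methods, reads were aligned to mm9 with TopHat and quantified with cuffdiff. The submitters' processing notes instead name dm3, Bowtie, TopHat 1.3.1, and Cuffdiff 1.3.0, and which versions made the tables is not known here. As deposited, the FPKM tables hold 1 combined value per gene and genotype, and genes under 1 FPKM in both genotypes are not listed. The deposited log2 fold changes and p-values are the authors' own comparisons and were not used.

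Log2 ratios of FPKM + 0.1 were computed over all genes at 1 FPKM or more in either genotype, which removed 0 genes, and a ratio of 1.5-fold was counted. Depth is unknown, and no test was possible. Coordinates are from the mm9 annotation. Members with full values passed 1.5-fold at 5 FPKM or more, were the 2 most abundant of a family in controls, or are named by the study, and the others are given to account for every member. The symbol rule for members used no measured value. This rule, the families, and the effector and marker lists were nevertheless set with earlier results of these data known. The alternatives were other pseudocounts (1, 0.01), filters (none, 5 FPKM in either genotype, 1 FPKM in both), fold limits (2, 1.2), and scalings (median, sums without red blood cell genes, upper quartile), and, chosen after seeing the data, members without *Unc50*. Some marker genes counted in the lists are not reported here by name. The ratio step was tested on simulated data. Python 3.11.15, numpy 2.4.6, pandas 2.3.3, and matplotlib 3.10.9 were used.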

Additional observations from a re-analysis of the deposited data

Results flagged for a closer look

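*Epha3* had opposite differences in the 2 mutant comparisons. Its log2 ratio was -0.70 in E11.5 CKO ganglia (7.77 FPKM in control, 4.75 FPKM in CKO) and 0.697 in E14.5 hypomorphic ganglia (4.40 FPKM in wildtype, 7.20 FPKM in hypomorph), so that it moved away from control in opposite directions. The difference between the comparisons was not tested, since each genotype has 1 combined value, and the comparisons differ in stage, *Isl1* allele, and dissection, which cannot be told apart. Of 68 members listed at both stages, 1 was lower at E11.5 and higher at E14.5, and 0 went the other way. Over all 12727 such genes these counts were 110 and 52.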

How the results depend on the processing

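No paired analysis was possible because the tables hold 1 combined value per genotype, which also means that no library could be left out. Of 165 recomputed counts and medians, 135 kept their value within the limits set, 28 moved, and 2 changed sign, and all 603 recomputed log2 ratios of named members moved by less than the limit. Some that lay near 0 changed sign, as *Neo1* (to -0.10), *Rgmb* (to -0.07), *Sema4c* (to -0.13), and *Unc50* (to -0.03) did at E11.5 after rescaling without red blood cell genes, and none past 1.5-fold did. A ratio that stayed under the limit could still leave the count. Under that rescaling *Sema3a* went from 0.81 to 0.577 at E11.5, within 1.5-fold, and 10 of the 19 higher members stayed past it. The 2 sign changes among medians were those of the members after rescaling without red blood cell genes, to -0.046 at E11.5 and 0.020 at E14.5. That rescaling also gave 10 higher members, 21 lower effectors, and an effector median of -0.41 at E11.5. A 2-fold limit gave 3 lower and 7 higher members and 0 lower and 1 higher effectors at E11.5, 0 lower and 1 higher members and 0 lower effectors at E14.5, and 4 lower and 22 higher members between stages. A 1.2-fold limit gave 19 lower and 31 higher members and 25 lower and 16 higher effectors at E11.5, and 16 lower and 12 higher members and 8 lower and 2 higher effectors at E14.5. A pseudocount of 1 gave 5 lower effectors at E11.5 and 1 lower member at E14.5. Requiring 5 FPKM in either genotype gave 3 higher effectors at E11.5, and 1 lower member and 1 lower effector at E14.5, and requiring 1 FPKM in both gave 2 lower members at E14.5. The member median between stages was 0.39 after centring and 0.49 after upper quartile scaling. These counts moved because a stricter or looser limit, a larger pseudocount, fewer genes, or a shifted scale was applied by construction. Over all genes at E14.5, 9.01% were lower and 12.2% higher at 1.2-fold. Of all genes at 5 FPKM or more, 15.1% were higher at E11.5 and 1.67% lower at E14.5. Shares of all genes at 2-fold, and at 1.2-fold at E11.5, are not given here, so those counts cannot be set against all genes. At E14.5, *Rgmb* was the only lower member left at 5 FPKM or more.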
